A study of Mus musculus with 49 samples.

Results

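Lymphoid priming genes are genes of the lymphoid programme whose transcripts appear at low or moderate levels in multipotent cells before the lymphoid and myeloid lineages part. The 9 genes described here were Dntt, Rag1, Rag2, Flt3, Il7r, Notch1, Ccr9, Satb1 and Ikzf1. They were taken by name, each symbol mapping to 1 of the 38253 Ensembl genes of the expression table, of which 24395 were above 0 in at least 1 sample. The rule that picks them uses no measured value, but the members were chosen with earlier results of these data known.

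Expression had been measured by RNA sequencing of amplified cDNA in 49 C57BL/6J mouse samples, 30 from normal cells and 19 from leukaemias, given as FPKM, fragments scaled by transcript length and by the size of the library. The labels give every sample, leukaemias included, an age of 6 to 12 weeks and a wild-type (WT) genotype. Bone marrow was the source of 6 normal groups. The stem cells gave 5 long-term (LT-HSC) and 5 short-term (ST-HSC) samples, and 6 samples held multipotent progenitors (MPP). Of the myeloid side, 5 samples each held common (CMP) and granulocyte-macrophage (GMP) progenitors, and 4 held progenitors of megakaryocytes and erythrocytes (MEP). Per the methods of the study, LT-HSC, ST-HSC and MPP were lineage-negative, Sca-1+ and c-Kit+, and were parted by CD150 and CD34. CMP and GMP were lineage-negative, Sca-1- and c-Kit+, and were parted by the Fc gamma receptor. The lineage mix held antibodies to B220, CD11b and Gr-1, so B cells and granulocytes were to be removed by the sort. The 4 leukaemia groups carried the MLL-AF9 (MA9) fusion and were named for the sorted cell that had received it, with 6 samples each of MPP:MA9 and GMP:MA9, 4 of CMP:MA9 and 3 of STHSC:MA9. All leukaemias shared a retrovirus that drives MLL-AF9 with GFP, brief culture and transplantation into sublethally irradiated wild-type mice. Bulk GFP+ cells were sequenced, and no normal group had gone through transduction or transplantation. The labels give bone marrow as the tissue of the leukaemias, whereas the methods name the spleen of the recipient. Such bulk cells can hold several stages of maturation.

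The members fall into 4 roles. Dntt encodes terminal deoxynucleotidyl transferase, which adds untemplated bases at the joints of immune receptor genes, and Rag1 and Rag2 encode the recombinase that cuts those genes. Flt3 and Il7r are cytokine receptors of early lymphoid progenitors, Notch1 is the receptor whose signal directs T lineage entry, and Ccr9 is a chemokine receptor for thymus homing. Satb1, a chromatin organiser, and Ikzf1, which encodes the zinc-finger factor Ikaros, act on lymphoid fate from the stem cell onwards. In normal marrow, FLT3-high multipotent progenitors switch on part of this programme before they commit, and cells that turn to the myeloid or erythroid lineage lose most of it.

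The promoter sequences of Dntt, Rag1, Rag2, Flt3 and Il7r are given because the report contrasts the recombination genes and cytokine receptors, from Dntt, which had the widest range, to Rag1, which did not share its pattern. Each run is the 250 bases before the transcript start, 5′ to 3′ on the gene's strand, from RefSeq on GRCm38.p6. All 9 members matched this table. Capitals mark matches on either strand to 1 of 7 short motifs: CAGCTG and CAGGTG (E proteins), TGGGAA (Ikaros), GAGGAA (PU.1), TGTGGT (RUNX), CCCNNGGG (EBF1) and AACTG (MYB).
Dntt: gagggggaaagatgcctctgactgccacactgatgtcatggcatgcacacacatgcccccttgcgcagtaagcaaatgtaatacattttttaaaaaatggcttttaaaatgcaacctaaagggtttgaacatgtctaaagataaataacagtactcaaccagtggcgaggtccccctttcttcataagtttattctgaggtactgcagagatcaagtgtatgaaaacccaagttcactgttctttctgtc
Rag1: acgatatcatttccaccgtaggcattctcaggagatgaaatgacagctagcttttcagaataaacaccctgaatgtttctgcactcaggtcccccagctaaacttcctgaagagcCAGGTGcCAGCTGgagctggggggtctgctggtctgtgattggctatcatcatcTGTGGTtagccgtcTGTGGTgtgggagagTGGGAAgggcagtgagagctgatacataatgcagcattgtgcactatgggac
Rag2: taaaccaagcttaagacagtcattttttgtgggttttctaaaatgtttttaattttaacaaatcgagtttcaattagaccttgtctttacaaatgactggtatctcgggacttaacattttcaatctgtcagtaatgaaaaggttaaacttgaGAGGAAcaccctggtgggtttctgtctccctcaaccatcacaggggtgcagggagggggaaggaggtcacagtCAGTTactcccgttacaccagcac
Flt3: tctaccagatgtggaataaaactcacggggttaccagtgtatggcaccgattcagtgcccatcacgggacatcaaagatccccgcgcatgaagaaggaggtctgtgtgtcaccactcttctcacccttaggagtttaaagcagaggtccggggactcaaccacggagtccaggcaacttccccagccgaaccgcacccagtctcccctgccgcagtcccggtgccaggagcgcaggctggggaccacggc
Il7r: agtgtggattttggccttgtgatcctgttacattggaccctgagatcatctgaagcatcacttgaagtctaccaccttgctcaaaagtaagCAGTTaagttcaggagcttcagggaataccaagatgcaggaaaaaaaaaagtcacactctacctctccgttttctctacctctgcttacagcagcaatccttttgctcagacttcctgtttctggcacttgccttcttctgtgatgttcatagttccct
The Dntt window lay at chr19:41029025-41029274 on the + strand, Rag1 at chr2:101649533-101649782 on the - strand, Rag2 at chr2:101624462-101624711 on the + strand, Flt3 at chr5:147400490-147400739 on the - strand and Il7r at chr15:9529877-9530126 on the - strand. Neither the Dntt nor the Flt3 window held any of the motifs. The Rag1 window held each of the E protein motifs and the Ikaros motif 1 time and the RUNX motif 2 times. The Rag2 window held the PU.1 and MYB motifs, and the Il7r window held the MYB motif. No matches overlapped. Over 32851 windows of this length, the share that held a motif was 13.0% for CAGCTG, 17.2% for CAGGTG, 21.6% for TGGGAA, 23.3% for GAGGAA, 14.0% for TGTGGT, 11.8% for CCCNNGGG and 39.1% for AACTG. These matches describe letters in a short window, and binding was not measured.

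On the NCBIM37 assembly (mm9), which the submitters' processing notes name, Dntt spans chromosome 19 from 41103765 to 41134013. Rag1 (chromosome 2, 101478439 to 101489658) and Rag2 (chromosome 2, 101464875 to 101472685) are neighbours on opposite strands, and exons of both overlap the annotated gene B230118H07Rik. Flt3 spans chromosome 5 from 148142317 to 148212065, Il7r chromosome 15 from 9435916 to 9459631 and Satb1 chromosome 17 from 51875512 to 51972615, with no exon shared with another gene. Ikzf1 (chromosome 11, 11585006 to 11672929) also shares no exon. Exons of Notch1 (chromosome 2, 26313423 to 26372183) overlap the noncoding genes 0610009E02Rik and Gm13568, and exons of Ccr9 (chromosome 9, 123587557 to 123691089) overlap Slc6a20a, Gm17200 and Gm17021. B230118H07Rik lies on the same strand as Rag1, and Gm17200 on the same strand as Ccr9. The amplified cDNA kept no strand, so reads of partners on the other strand cannot be told apart by strand either.

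Depth relative to the median library ran from 0.546 to 1.43, being 1.10 to 1.32 in MPP, 0.546 to 0.799 in LT-HSC and 0.660 to 0.720 in MEP. 1 read was worth about 0.0309 to 0.0812 FPKM for Dntt, 0.00996 to 0.0261 FPKM for Rag1 and 0.0192 to 0.0505 FPKM for Rag2, so values below these steps rest on no read or a part of 1 read. Some normal libraries were high in transcripts that mark other cells, and whether such cells were present was not tested. The summed level of 14 B-lineage genes was 64.2 to 80.5 FPKM in MPP, 33.7 to 45.4 in CMP and 25.6 to 38.0 in GMP. It was 282 and 123.5 FPKM in LT-HSC replicates 4 and 5 (36.8 to 43.4 in the other 3), 153 and 61.8 in ST-HSC replicates 4 and 5 (36.2 to 49.1 in the other 3), and 297 and 388 in MEP replicates 3 and 4 against 25.5 and 25.3 in MEP replicates 1 and 2. Pax5, the factor that fixes B identity, was 19.04 FPKM in LT-HSC replicate 4 and 13.66 and 15.22 in MEP replicates 3 and 4. Ms4a1, a gene of mature B cells, was 16.09 and 10.39 FPKM in LT-HSC replicates 4 and 5, and at most 0.51 in MEP. LT-HSC replicates 4 and 5 and ST-HSC replicates 4 and 5 also had a summed level of 9 granulocyte genes of 74776, 30166, 42552 and 8778 FPKM, against 22.2 to 41.3 in the other 3 LT-HSC libraries and 51.7, 115 and 1215 in the other 3 ST-HSC libraries. MEP replicate 4 had 3408 FPKM. Where leaving out these 6 libraries changed the call of a member, the value without them is given.

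**Figure D1:**
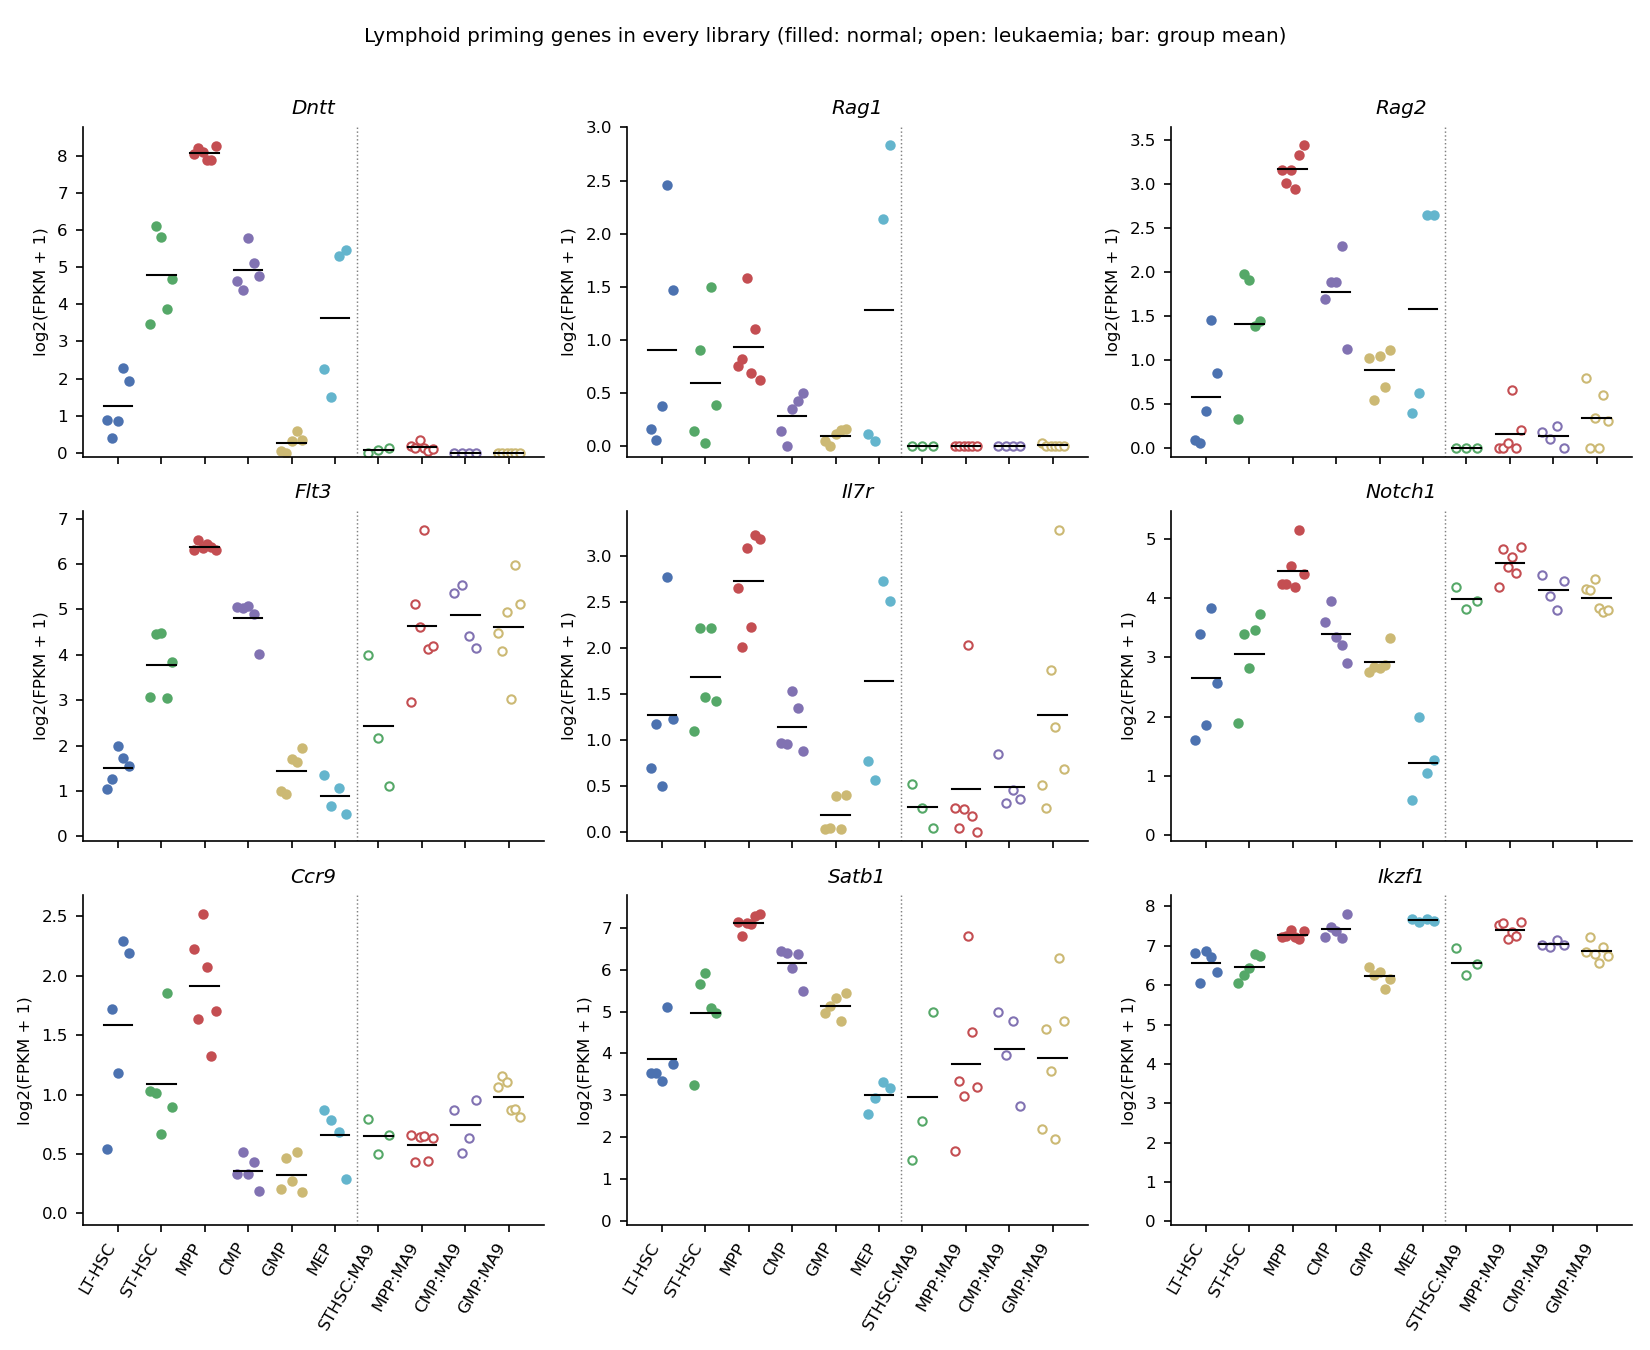
Level of each of the 9 members in every library, as log2(FPKM + 1) on the vertical axis, with the 6 normal groups (filled points) left of the dotted line and the 4 leukaemia groups (open points) right of it, and a bar at the group mean. Dntt, Rag2, Flt3 and Satb1 were highest in all 6 MPP libraries among normal cells, and Dntt was near 0 in all 19 leukaemias.

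Of the recombination genes, Dntt had the widest range of any member. Its level in MPP ran from 236.49 to 308.29 FPKM with a median of 268.275 (269 ± 29.4, mean ± SD, n = 6). In ST-HSC replicates 1 to 5 it was 10.01, 67.48, 54.77, 13.75 and 24.83 FPKM, and in CMP it was 23.57, 20.01, 54.7, 33.89 and 25.91. Every MPP library was above every library of the other normal groups. In LT-HSC Dntt was 0.84, 0.32, 0.82, 3.86 and 2.82 FPKM, and in GMP it was 0.03, 0, 0.25, 0.51 and 0.26. ST-HSC and CMP overlapped almost wholly, and LT-HSC lay between them and GMP, with the 2 highest LT-HSC values in replicates 4 and 5. In MEP it was 3.77 and 1.85 FPKM in replicates 1 and 2 and 38.35 and 42.8 in replicates 3 and 4, so that the 2 MEP libraries high in B-lineage genes were at the level of CMP. The mean level in MPP was 7.87 times that in ST-HSC and 8.51 times that in CMP, as ratios of mean FPKM.

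Differences were tested with limma on log2(FPKM + 1) over the 12367 genes whose mean was 1 FPKM or more in the 30 normal samples, and called at a Benjamini-Hochberg adjusted p below 0.05 with an absolute log2 difference above 1. 8 of the 9 members passed the level filter, Rag1 (mean below 1 FPKM) being the exception. Dntt was higher in MPP than in LT-HSC by 6.80 on this log2 scale (SE 0.54, adjusted p = 3.19e-10), than in ST-HSC by 3.28 (adjusted p = 9.91e-05), than in CMP by 3.13 (adjusted p = 0.000174), than in GMP by 7.81 (adjusted p = 3.55e-12) and than in MEP by 4.44 (adjusted p = 2.64e-07). ST-HSC were already above LT-HSC by 3.51 (adjusted p = 0.000209), and GMP were below CMP by 4.68 (adjusted p = 2.18e-07).

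Rag2 and Rag1 were far lower than Dntt in FPKM, which is per length. Rag2 in MPP ran from 6.69 to 9.81 FPKM (8.05 ± 1.18, n = 6), above every library of the other normal groups. It was 0.25, 2.92, 2.76, 1.61 and 1.71 FPKM in ST-HSC and 2.22, 2.68, 2.7, 3.89 and 1.18 in CMP. GMP ran from 0.46 to 1.16 FPKM, and LT-HSC were at 0.06, 0.04, 0.34, 1.74 and 0.8. MEP were at 0.32 and 0.54 FPKM in replicates 1 and 2, and at 5.27 and 5.23 in replicates 3 and 4, the libraries high in B-lineage genes. The order of group means was MPP, MEP, CMP, ST-HSC, GMP and LT-HSC, and each neighbour pair after MPP overlapped. The place of MEP in this order rests on its replicates 3 and 4. On the log2 scale MPP exceeded the other groups by between 1.39 (against CMP, adjusted p = 0.00726) and 2.60 (against LT-HSC, adjusted p = 2.00e-06). With a pseudocount of 0.1 in place of 1 the difference from CMP was 1.71 and was not called (adjusted p = 0.0801). Rag1 did not follow this order. Its mean was highest in MEP (2.40 FPKM) and LT-HSC (1.35), where single libraries drove it: 0.08, 0.03, 3.39 and 6.12 FPKM in MEP and 0.12, 0.04, 0.3, 4.51 and 1.76 in LT-HSC. MPP had 0.54 to 2.0 FPKM (0.96 ± 0.552), CMP 0 to 0.41 and GMP 0 to 0.12. With no filter on level, no comparison of Rag1 between MPP and another normal group passed the test. The mean of log2(FPKM + 1) in MPP was 0.93, so MPP could not have been called higher at the fold threshold. Nothing is read from the missing calls. The 3 highest Rag1 values were in the 3 libraries with the highest B-lineage sums, and the part of B-lineage cells in the Rag1 values was not tested.

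**Figure D2:**
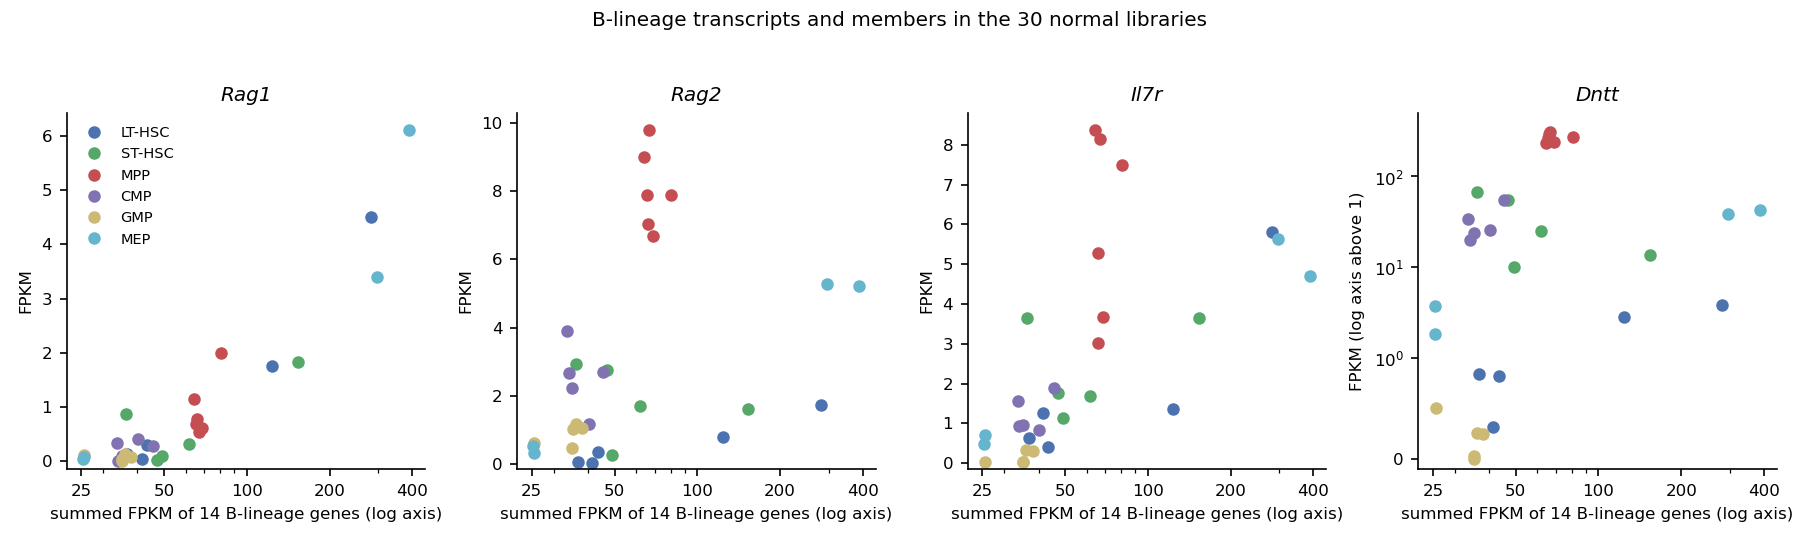
Rag1, Rag2, Il7r and Dntt (vertical axes, FPKM, logarithmic above 1 for Dntt) against the summed FPKM of 14 B-lineage genes (logarithmic horizontal axis) in the 30 normal libraries, coloured by group. Rag1 was highest where the sum was highest, in MEP replicates 3 and 4 (297 and 388 FPKM) and LT-HSC replicate 4 (282), whereas Dntt and Rag2 were highest in the 6 MPP libraries, with sums of 64.2 to 80.5.

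Of the cytokine receptors, Flt3 separated the groups most evenly. Its level in MPP ran from 77.75 to 92.02 FPKM (82.7 ± 5.42, n = 6). It was 32.14, 31.96, 32.77, 28.78 and 15.15 FPKM in CMP, and 7.42, 20.93, 21.34, 7.32 and 13.31 in ST-HSC. LT-HSC (1.06 to 2.98 FPKM), GMP (0.91 to 2.84) and MEP (0.4 to 1.54) made a low tier in which all 3 ranges overlapped. MPP lay apart from CMP, CMP overlapped ST-HSC through replicate 5, and ST-HSC lay apart from the low tier. On the log2 scale Flt3 was higher in MPP by 1.57 than in CMP (adjusted p = 8.42e-05), by 2.60 than in ST-HSC (adjusted p = 3.74e-08), by 4.87 than in LT-HSC (adjusted p = 8.97e-14), by 4.94 than in GMP (adjusted p = 2.07e-14) and by 5.49 than in MEP (adjusted p = 5.89e-15). It fell from CMP to GMP by 3.37 (adjusted p = 1.33e-10) and was lower in MEP than in CMP, with a difference of -3.92 (adjusted p = 3.24e-11). The MEP libraries high in B-lineage genes were no higher in Flt3 (1.11 and 0.4 FPKM) than the other 2 (1.54 and 0.58).

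Il7r was low throughout and its groups overlapped. In MPP it ran from 3.03 to 8.38 FPKM (6.00 ± 2.33, n = 6), in CMP from 0.84 to 1.9 and in GMP from 0.02 to 0.32. ST-HSC were at 1.14, 3.64, 1.77, 3.64 and 1.68 FPKM. MEP were at 0.7, 0.48, 5.63 and 4.7, and LT-HSC at 0.62, 1.25, 0.41, 5.82 and 1.35. MPP lay wholly above CMP and GMP, and overlapped the other 3 groups through libraries most of which were high in B-lineage genes. The log2 difference of MPP was 2.56 against GMP (adjusted p = 2.42e-06), 1.59 against CMP (adjusted p = 0.00388), 1.46 against LT-HSC (adjusted p = 0.00286), 1.09 against MEP (adjusted p = 0.0244) and 1.05 against ST-HSC (adjusted p = 0.0479). The ST-HSC call was lost without any 1 of 18 libraries (LT-HSC 5, ST-HSC 1, 3 or 5, MPP 1, 3, 5 or 6, or any of CMP or GMP), over all removals the difference being 0.90 to 1.19, and with the replicate number as a block (0.96, adjusted p = 0.0802). The MEP call was lost without MPP replicate 5 (0.99), MPP replicate 6 (adjusted p = 0.0501), MEP replicate 1 (0.80) or MEP replicate 2 (0.73), and with the block (0.99, adjusted p = 0.0424).

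Notch1 was 17.26 to 34.58 FPKM in MPP (21.7 ± 6.58, n = 6), with replicate 5 the highest. It was 11.14, 14.52, 9.14, 8.21 and 6.46 FPKM in CMP, 2.71, 9.53, 6.07, 10.03 and 12.36 in ST-HSC, and 2.03, 9.49, 2.62, 13.3 and 4.91 in LT-HSC. GMP ran from 5.78 to 9.03 FPKM and MEP from 0.51 to 2.96. MPP lay above every other normal library, and CMP, ST-HSC, GMP and LT-HSC overlapped one another. On the log2 scale MPP exceeded MEP by 3.24 (adjusted p = 1.89e-08), LT-HSC by 1.82 (adjusted p = 0.000122), GMP by 1.54 (adjusted p = 0.000464), ST-HSC by 1.40 (adjusted p = 0.0043) and CMP by 1.06 (adjusted p = 0.0319). When a trend with GC content and length was removed, the difference was 0.94 against CMP and 0.99 against GMP, under the fold threshold. The call against CMP was lost without MPP replicate 3 (1.05, adjusted p = 0.0567) or 5 (0.93), or without CMP replicate 3 (adjusted p = 0.0639), 4 (adjusted p = 0.0636) or 5 (0.94).

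Ccr9 was low in all normal groups, and its mean reached the level filter through MPP, where it was highest, so that its differences from MPP are given as values that the filter favours. MPP ran from 1.5 to 4.73 FPKM (2.91 ± 1.19, n = 6), LT-HSC were at 0.46, 2.29, 1.27, 3.9 and 3.56, and ST-HSC at 1.04, 1.02, 0.59, 2.61 and 0.86. CMP ran from 0.14 to 0.43 FPKM, GMP from 0.13 to 0.43 and MEP from 0.22 to 0.83, all below every MPP library. MPP exceeded CMP by 1.55 on the log2 scale (adjusted p = 0.000133), GMP by 1.58 (adjusted p = 1.44e-05) and MEP by 1.25 (adjusted p = 0.000476). The difference was 0.32 against LT-HSC (adjusted p = 0.342) and 0.82 against ST-HSC (adjusted p = 0.0274, below the fold threshold). Without LT-HSC and ST-HSC replicates 4 and 5 the ST-HSC difference was 1.01 (adjusted p = 0.00503), and leaving out ST-HSC replicate 4 alone also gave 1.01 (adjusted p = 0.00878).

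The nuclear factors stood at higher levels than most members. Satb1 in MPP ran from 109.8 to 158.48 FPKM (139 ± 17.2, n = 6). It was 86.09, 83.41, 64.49, 82.42 and 43.9 FPKM in CMP, 8.5, 49.43, 59.9, 32.86 and 30.35 in ST-HSC, and 26.48 to 42.61 in GMP. LT-HSC were at 10.55, 10.61, 9.2, 33.73 and 12.54, and MEP at 4.91 to 9.04. MPP lay above every other normal library, and MEP overlapped only ST-HSC, through replicate 1 (8.5). On the log2 scale Satb1 was higher in MPP than in MEP by 4.12 (adjusted p = 1.28e-10), than in LT-HSC by 3.26 (adjusted p = 1.40e-08), than in ST-HSC by 2.14 (adjusted p = 3.95e-05) and than in GMP by 1.99 (adjusted p = 1.27e-05). Against CMP the difference was 0.97 (adjusted p = 0.043), just under the fold threshold, and it passed without MPP replicate 2 (1.04), CMP replicate 1 (1.05) or CMP replicate 2 (1.03) and under median-ratio scaling of the libraries (1.01).

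Ikzf1 had the highest mean FPKM of all members in every group except MPP, and unlike most members it was not highest in MPP. MEP were at 204.92, 192.7, 203.62 and 198.04 FPKM (199.8 ± 5.61, n = 4), CMP ran from 146.86 to 221.46 (172 ± 30.3, n = 5) and MPP from 143.58 to 167.18 (154 ± 9.48, n = 6). LT-HSC ran from 65.58 to 115.75 FPKM, ST-HSC from 64.94 to 108.89 and GMP from 58.42 to 87.4. MPP lay wholly below MEP and wholly above LT-HSC, ST-HSC and GMP, and overlapped CMP. The 1 comparison with MPP to pass the fold threshold was that against GMP (1.05, SE 0.14, adjusted p = 7.18e-07), which was 0.97 without GMP replicate 4 and 0.87 under median-ratio scaling. The log2 differences were 0.71 against LT-HSC (adjusted p = 0.00026), 0.82 against ST-HSC (adjusted p = 0.000173), -0.14 against CMP (adjusted p = 0.571) and -0.37 against MEP (adjusted p = 0.042).

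**Figure D3:**
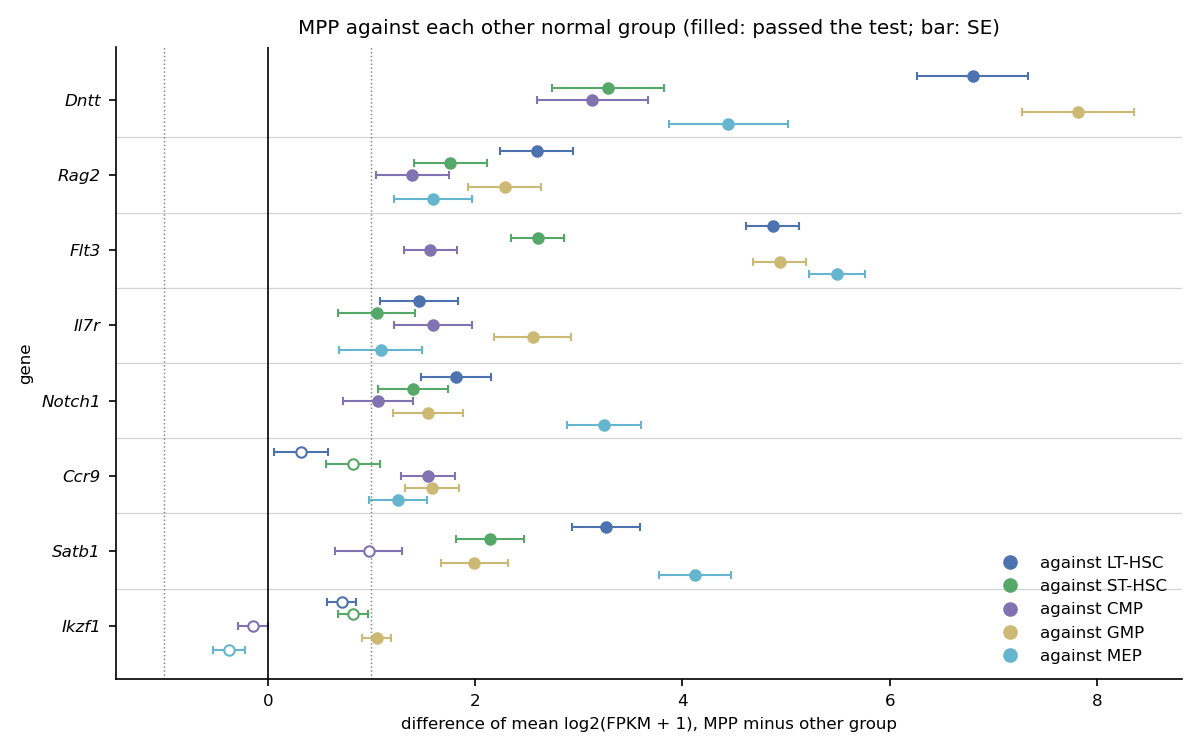
Difference of mean log2(FPKM + 1) between MPP and each of the other 5 normal groups (horizontal axis) for the 8 members tested, with the limma SE as bars, filled points where the test was passed and dotted lines at the fold threshold. Dntt had the largest differences against each group but MEP, where Flt3 was larger (5.49), and Ikzf1 passed only against GMP.

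All 8 tested members passed the F test over the 6 normal groups, which 78.4% of tested genes passed, so that passing it says little of these genes. The members called as higher in MPP are given beside the share of all tested genes, with Ccr9, which passed the filter through MPP, in the CMP, GMP and MEP counts. 6 of 8 were higher than in LT-HSC, where 6.19% of tested genes were. 6 of 8 were higher than in ST-HSC (2.13% of tested genes), 6 of 8 higher than in CMP (2.83%), all 8 higher than in GMP (12.0%) and 7 of 8 higher than in MEP (16.1%). The 5 comparisons share the MPP libraries. The 6 higher than in ST-HSC and in LT-HSC were Dntt, Flt3, Il7r, Rag2, Notch1 and Satb1, and in the CMP comparison Ccr9 took the place of Satb1. No member was lower in MPP in a call. Over all 9 members, with no filter, the median log2 difference was 1.82 against LT-HSC, 1.40 against ST-HSC, 1.39 against CMP, 1.99 against GMP and 1.59 against MEP, where the medians of all tested genes were 0.24, 0.10, -0.03, 0.17 and 0.11. Without LT-HSC and ST-HSC replicates 4 and 5, all 8 tested members were higher in MPP than in ST-HSC, Ikzf1 by 1.03 and Ccr9 by 1.01. In this count too, Ccr9 passed the filter through MPP.

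At the earlier step, from LT-HSC to ST-HSC, 3 of 8 members rose (1.50% of tested genes did): Dntt by 3.51, Flt3 by 2.27 (adjusted p = 7.63e-06) and Satb1 by 1.12 (adjusted p = 0.0361). Rag2 differed by 0.83 (adjusted p = 0.17), by 1.21 without LT-HSC and ST-HSC replicates 4 and 5 (adjusted p = 0.0988), and passed at that difference when MEP replicates 3 and 4 were left out as well (adjusted p = 0.0191). The Satb1 call was lost without any 1 of 7 libraries (LT-HSC 1, 2, 3 or 5, or ST-HSC 2, 3 or 5), over all removals the difference being 0.88 to 1.55, and in a fit of those groups alone (adjusted p = 0.405). From CMP to GMP, 4 of 8 members fell (7.94% of tested genes did): Dntt by 4.68, Flt3 by 3.37, Ikzf1 by 1.19 (adjusted p = 3.69e-07) and Satb1 by 1.02 (adjusted p = 0.0192). Median-ratio scaling, which moved the median of all genes in this comparison by 0.19, left Ikzf1 at -0.97 and Satb1 at -0.80, neither of them called, and the Satb1 call was also lost without CMP replicate 1, 2 or 4 or GMP replicate 1 or 4. Rag2 differed by -0.89 (adjusted p = 0.0574), and by -1.06 without CMP replicate 5 (adjusted p = 0.036). From CMP to MEP, 3 of 8 fell (9.49% of tested genes did): Flt3 by 3.92, Satb1 by 3.15 (adjusted p = 1.13e-07) and Notch1 by 2.18 (adjusted p = 5.16e-05). Dntt differed by -1.31 (adjusted p = 0.0973) with all 4 MEP libraries, by -1.86 without MEP replicate 3 and by -1.92 without MEP replicate 4, both called. Without MEP replicates 3 and 4, which were high in B-lineage genes, 5 members were lower, Dntt by 3.05 (adjusted p = 9.91e-05) and Rag2 by 1.26 (adjusted p = 0.0146) among them.

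The rescaling mattered for the balance of calls over all genes. It moved the median log2 difference of all genes by -0.23 for MPP against LT-HSC, by -0.10 against ST-HSC, by -0.16 against GMP, by -0.10 against MEP, by -0.12 for ST-HSC against LT-HSC and by 0.14 for MEP against CMP. The share of all calls that were higher went from 67.6% to 45.2% for MPP against LT-HSC, from 61.9% to 46.3% against ST-HSC, from 75.9% to 64.2% against GMP, from 66.1% to 45% for ST-HSC against LT-HSC, from 29.4% to 47.2% for GMP against CMP and from 19.8% to 30.3% for MEP against CMP.

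The leukaemias were then compared with the normal cell in which each had begun. Of the 9 members, 7 passed the level filter over these 40 samples (12600 genes tested). Rag1 and Ccr9 did not pass, and Dntt and Rag2 passed through the normal groups alone, so a difference in them was bound to show. Fewer cells of a type and less RNA per cell cannot be told apart in bulk samples such as these.

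Dntt was at or near 0 in every leukaemia. It was 0, 0.06 and 0.09 FPKM in STHSC:MA9 and 0.04 to 0.27 in MPP:MA9, and all 4 CMP:MA9 and all 6 GMP:MA9 libraries were listed at 0. These values lie within a few reads of 0, below every normal library except those of GMP and below the lowest MPP library (236.49 FPKM) in particular. On log2(FPKM + 1), whose size here depends on the pseudocount, Dntt was lower by 7.91 in MPP:MA9 than in MPP (SE 0.26, adjusted p = 2.76e-24), by 4.94 in CMP:MA9 than in CMP (adjusted p = 6.46e-16) and STHSC:MA9 differed from ST-HSC by -4.72 (adjusted p = 2.20e-14). Against GMP, itself at 0 to 0.51 FPKM, GMP:MA9 differed by -0.26 (adjusted p = 0.434).

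Rag2 was 0 in all 3 STHSC:MA9 libraries, 0 to 0.58 FPKM in MPP:MA9 (highest in replicate 4), 0.13, 0.07, 0.19 and 0 in CMP:MA9 and 0 to 0.73 in GMP:MA9. It was lower by 3.02 in MPP:MA9 than in MPP on the log2 scale (adjusted p = 3.83e-15), by 1.64 in CMP:MA9 than in CMP (adjusted p = 3.12e-07) and by 1.41 in STHSC:MA9 than in ST-HSC (adjusted p = 2.45e-05), whereas the difference of GMP:MA9 from GMP was -0.54 (adjusted p = 0.0293). Rag1 was listed at 0 in 18 of the 19 leukaemias, the other being GMP:MA9 replicate 1 at 0.02 FPKM. With no filter on level, the log2 difference of Rag1 was -0.93 between MPP:MA9 and MPP (adjusted p = 4.68e-06), under the fold threshold. From the low level of Rag1 in MPP, no fall could have reached that threshold. In each leukaemia group the mean FPKM of each of the 3 recombination genes was below that of every normal group.

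Flt3 was well above 0 in most leukaemias. It was 16.89 to 45.8 FPKM in CMP:MA9, 7.19 to 62.5 in GMP:MA9 (median 25.515) and 6.79 to 106.61 in MPP:MA9 (median 20.365). In STHSC:MA9 it was 15.02, 3.51 and 1.15 FPKM. All 4 leukaemia ranges overlapped in neighbouring pairs, and within MPP:MA9 replicate 4 was above every MPP library. Since normal levels ran from 82.7 in MPP to 1.83 in GMP, the same level was a fall for one origin and a rise for another. Flt3 fell from MPP to MPP:MA9 by 1.76 (adjusted p = 0.00114) and rose from GMP to GMP:MA9 by 3.16 (SE 0.48, adjusted p = 9.84e-07), a ratio of mean FPKM of 15.6, with every GMP:MA9 library above every GMP library. CMP:MA9 differed from CMP by 0.05 (adjusted p = 0.944) and STHSC:MA9 from ST-HSC by -1.35 (adjusted p = 0.0513). The latter passed without STHSC:MA9 replicate 1 (-2.14, adjusted p = 0.005) or ST-HSC replicate 1 or 4 (-1.53 and -1.54), and without ST-HSC replicates 4 and 5 (-1.58, adjusted p = 0.0459). It passed at the same difference without MPP:MA9 replicate 1 or 4 or GMP:MA9 replicate 4 or 5, which enter only the estimate of the spread.

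Il7r was 0.03 to 0.43 FPKM in STHSC:MA9, 0 to 0.2 in MPP:MA9 apart from replicate 4 at 3.09, and 0.24 to 0.8 in CMP:MA9. In GMP:MA9 it ran from 0.2 to 8.77 FPKM with a median of 0.905, the 2 highest being replicate 5 (8.77) and replicate 3 (2.38). It was lower by 2.27 in MPP:MA9 than in MPP (adjusted p = 7.27e-07) and by 1.41 in STHSC:MA9 than in ST-HSC (adjusted p = 0.00812). It was higher by 1.10 in GMP:MA9 than in GMP (adjusted p = 0.0105), a call lost without GMP:MA9 replicate 3 (1.00, adjusted p = 0.0266) or replicate 5 (0.69, adjusted p = 0.0536) and in a fit of GMP and GMP:MA9 alone (adjusted p = 0.0559). CMP:MA9 differed from CMP by -0.65 (adjusted p = 0.169).

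Notch1 stood at 12.61 to 28.3 FPKM in all 19 leukaemias, a range that overlapped that of MPP (17.26 to 34.58) and reached below it. The MPP:MA9 libraries lay within the MPP range, whereas STHSC:MA9, CMP:MA9 and GMP:MA9 each had libraries below it. STHSC:MA9 were at 17.33, 13.14 and 14.49 FPKM, CMP:MA9 at 19.98, 15.41, 12.99 and 18.59, GMP:MA9 at 12.61 to 19.06 and MPP:MA9 at 17.34 to 28.3. Every leukaemia was above every GMP library (5.78 to 9.03). Notch1 rose from GMP to GMP:MA9 by 1.08 (SE 0.22, adjusted p = 8.94e-05), or 2.28 times in mean FPKM, a difference of 0.70 when a trend with GC content and length was removed. The differences were 0.93 in STHSC:MA9 (adjusted p = 0.00415), 0.73 in CMP:MA9 (adjusted p = 0.0105) and 0.12 in MPP:MA9 (adjusted p = 0.625). The STHSC:MA9 difference passed the fold threshold without ST-HSC replicate 2, 4 or 5 or STHSC:MA9 replicate 2 (1.01 to 1.10), and was 1.29 without ST-HSC replicates 4 and 5 together.

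Satb1 varied more within the leukaemia groups than between them. It was 1.77, 4.26 and 30.72 FPKM in STHSC:MA9, 2.17 to 110.79 in MPP:MA9 (median 8.71), 30.81, 14.65, 26.41 and 5.66 in CMP:MA9 and 2.87 to 76.07 in GMP:MA9 (median 17.03). The highest values were again MPP:MA9 replicate 4 and GMP:MA9 replicate 5. Satb1 was lower by 3.37 in MPP:MA9 than in MPP (SE 0.64, adjusted p = 2.40e-05), by 2.03 in CMP:MA9 than in CMP (adjusted p = 0.0186) and by 2.03 in STHSC:MA9 than in ST-HSC (adjusted p = 0.0371). The CMP:MA9 call was lost without CMP:MA9 replicate 4 (-1.57, adjusted p = 0.0927). The STHSC:MA9 call was lost without STHSC:MA9 replicate 1 (-1.29) or 2 (-1.75) or any of ST-HSC replicates 2 to 5, without ST-HSC replicates 4 and 5 together (-1.99, adjusted p = 0.0768) and with the replicate block (-1.87, adjusted p = 0.0596). GMP:MA9 differed from GMP by -1.23 (adjusted p = 0.115), and by -1.71 without GMP:MA9 replicate 5 (adjusted p = 0.0256).

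Ikzf1 was present at a high level in every leukaemia, from 74.9 to 194.1 FPKM. STHSC:MA9 were at 121.86, 74.9 and 91.75 FPKM, GMP:MA9 at 94.02 to 148.19, CMP:MA9 at 129.42, 124.92, 141.8 and 129.28, and MPP:MA9 at 144.03 to 194.1. The MPP:MA9 range lay wholly above that of CMP:MA9, and the other neighbours in the order of means overlapped. No leukaemia differed from its own normal cell past the fold threshold, the log2 differences being 0.12 for STHSC:MA9 (adjusted p = 0.558), 0.14 for MPP:MA9 (adjusted p = 0.35), -0.37 for CMP:MA9 (adjusted p = 0.0287) and 0.63 for GMP:MA9 (adjusted p = 0.000118). Ccr9, too low to be tested, was 0.41 to 0.73 FPKM in STHSC:MA9, 0.35 to 0.58 in MPP:MA9, 0.42 to 0.94 in CMP:MA9 and 0.75 to 1.23 in GMP:MA9. With no filter its log2 difference was -1.33 between MPP:MA9 and MPP (adjusted p = 6.57e-09) and 0.65 between GMP:MA9 and GMP (adjusted p = 0.00149).

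**Figure D4:**
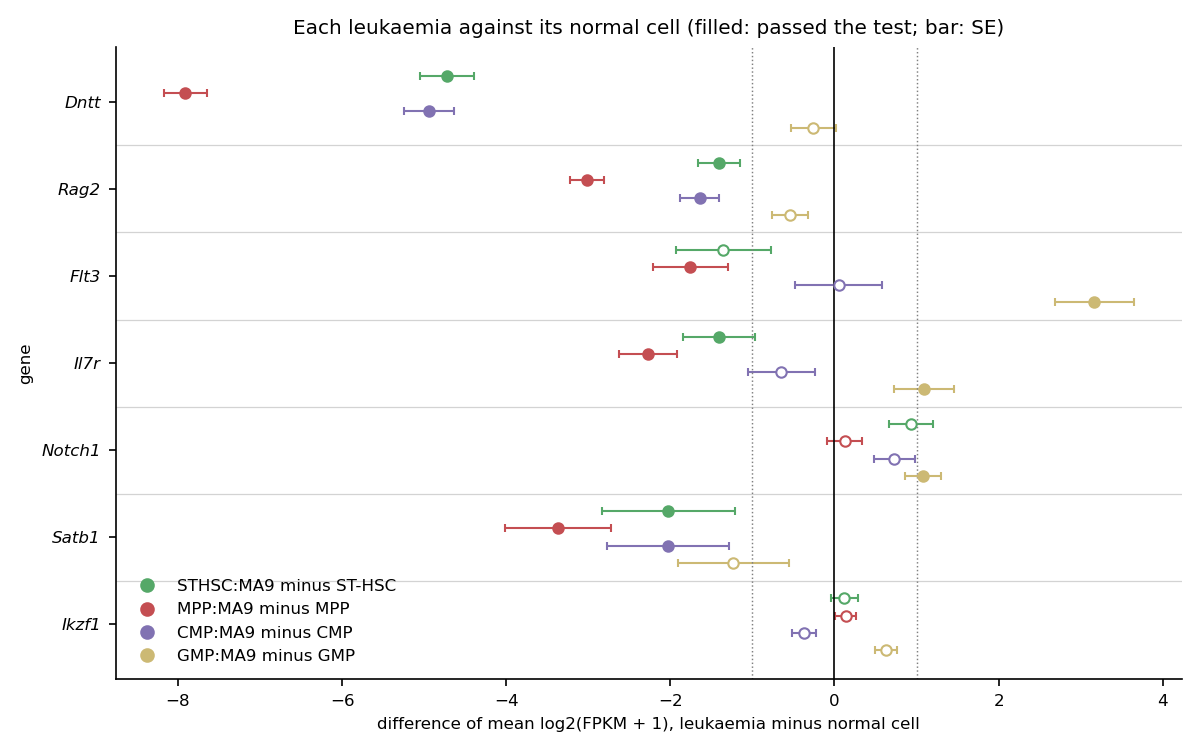
Difference of mean log2(FPKM + 1) between each leukaemia group and its own normal cell (horizontal axis) for the 7 members tested, with the limma SE as bars, filled points where the test was passed and dotted lines at the fold threshold. Dntt and Rag2 lay left of -1 in the ST-HSC, MPP and CMP origins, and Flt3, Il7r and Notch1 right of 1 in the GMP origin alone.

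In the counts by origin, the lower calls of Dntt and Rag2 were fixed by the filter and nothing is read from them. In MPP:MA9, 5 of 7 tested members were lower than in MPP, Flt3, Il7r and Satb1 beside Dntt and Rag2, where 13.6% of tested genes were lower. In STHSC:MA9, 4 of 7 were lower than in ST-HSC, Il7r and Satb1 beside those genes (11.9% of tested genes), and in CMP:MA9, 3 of 7 were lower than in CMP, Satb1 beside them (14.8%). In GMP:MA9, 3 of 7 were higher than in GMP (Flt3, Il7r and Notch1), where 13.5% of tested genes were higher, and none was lower. Over all 9 members, with no filter, the median log2 difference was -1.76 for MPP:MA9, -1.35 for STHSC:MA9, -0.37 for CMP:MA9 and 0.63 for GMP:MA9, against -0.09, -0.04, -0.16 and 0.00 for all tested genes. The member medians include Dntt and Rag2, and also Rag1 and Ccr9, which failed the filter that all tested genes had passed. Nothing is read from the contrast of these medians. Without MPP:MA9 replicate 4 and GMP:MA9 replicate 5 the MPP:MA9 count was 6, since Ccr9 then reached the filter through MPP, and without ST-HSC replicates 4 and 5 the STHSC:MA9 count was 5, with Flt3 and with Notch1 as a higher call, and with Satb1 lost. Whether the size of this change depended on the origin was asked with an F test, which 38.0% of tested genes passed, as did 5 of the 7 members: Dntt (adjusted p = 3.30e-16), Rag2 (adjusted p = 4.12e-07), Flt3 (adjusted p = 1.39e-06), Il7r (adjusted p = 2.20e-05) and Ikzf1 (adjusted p = 0.00141). It did not pass for Notch1 (adjusted p = 0.0531) or Satb1 (adjusted p = 0.245). Because Dntt and Rag2 passed the filter through the normal groups alone, for them the F test mainly restates the difference between normal groups. Nothing is read from their results in it.

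GMP served as a second reference for the other leukaemias, and these comparisons share the GMP libraries. In MPP:MA9, 3 of 7 members were higher than in GMP (16.3% of tested genes were): Flt3 by 3.18 (adjusted p = 6.23e-07), Notch1 by 1.67 (adjusted p = 5.80e-08) and Ikzf1 by 1.19 (adjusted p = 1.56e-09). In CMP:MA9, Flt3 (3.42, adjusted p = 1.64e-06) and Notch1 (1.21, adjusted p = 8.86e-05) were higher (14.2% of tested genes), Notch1 by 0.76 after the GC content and length correction and then not called. In STHSC:MA9, Notch1 was higher by 1.07 (adjusted p = 0.0014, 11.6% of tested genes higher) and Satb1 lower by 2.18 (adjusted p = 0.0271, 7.26% lower). Rag2 was below the fold threshold at -0.88 in STHSC:MA9 (adjusted p = 0.00566), -0.73 in MPP:MA9 (adjusted p = 0.00374) and -0.75 in CMP:MA9 (adjusted p = 0.00794), and with a pseudocount of 0.1 it was called lower in all 3 (-3.20, -2.44 and -2.32). Both STHSC:MA9 calls were lost without STHSC:MA9 replicate 1 (Notch1 at 0.96 and Satb1 at -1.44), Satb1 was also lost without replicate 2 (-1.90, adjusted p = 0.102), and Flt3 passed without replicate 3 (1.64, adjusted p = 0.036). Satb1 was lower in MPP:MA9 than in GMP without MPP:MA9 replicate 4 (-1.98, adjusted p = 0.00592).

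Between the leukaemias themselves, limma called none of the 5 members tested (Flt3, Il7r, Notch1, Satb1 and Ikzf1) in any of the 6 pairs. Dntt, Rag1, Rag2 and Ccr9 were below the level filter. At an unadjusted p below 0.05 there were 3 members when STHSC:MA9 was set against MPP:MA9, 2 against CMP:MA9 and 1 against GMP:MA9, 2 when MPP:MA9 was set against CMP:MA9 and 2 against GMP:MA9, and 0 between CMP:MA9 and GMP:MA9. The share of all tested genes at an unadjusted p below 0.05 is not given, so nothing is read from these counts. At the adjusted p with the fold threshold, where no member was called, the share of all tested genes called in either direction was 2.88%, 0.363%, 0.536%, 0.115%, 2.23% and 0.206% in the same order of pairs. Differences that passed the adjusted p but not the fold threshold were those of Ikzf1 (-0.84, adjusted p = 0.00257) and Notch1 (-0.60, adjusted p = 0.0344) in STHSC:MA9 against MPP:MA9, and of Ikzf1 (0.56, adjusted p = 0.00584) and Notch1 (0.59, adjusted p = 0.00867) in MPP:MA9 against GMP:MA9. Over the 4 leukaemia groups the F test, passed by 13.3% of tested genes, was passed by Ikzf1 (adjusted p = 0.00516) and Notch1 (adjusted p = 0.0258), and not by Flt3 (adjusted p = 0.0932), Il7r (adjusted p = 0.351) or Satb1 (adjusted p = 0.821). Flt3 was lowest in STHSC:MA9, with log2 differences of -2.20 from MPP:MA9 (adjusted p = 0.0535), -2.44 from CMP:MA9 (adjusted p = 0.138) and -2.18 from GMP:MA9 (adjusted p = 0.127). Without STHSC:MA9 replicate 1 these became -2.99 (adjusted p = 0.0187), -3.23 (adjusted p = 0.043) and -2.97 (adjusted p = 0.0454), and the Ikzf1 difference from MPP:MA9 became -1.02 (adjusted p = 0.00102). The Flt3 difference from MPP:MA9 also passed without MPP:MA9 replicate 1 (-2.53, adjusted p = 0.027), GMP:MA9 replicate 4 (adjusted p = 0.0447) or GMP:MA9 replicate 5 (adjusted p = 0.0489).

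The same 2 libraries were the highest of their groups for Flt3, Il7r and Satb1. MPP:MA9 replicate 4 had 106.61 FPKM of Flt3, 3.09 of Il7r and 110.79 of Satb1, and GMP:MA9 replicate 5 had 62.5, 8.77 and 76.07. Their summed levels of 9 genes of plasmacytoid dendritic cells were 725 and 587 FPKM, where the other 17 leukaemias had 124 to 556, and their granulocyte sums were 1003 and 2437 FPKM. The median granulocyte sum was 7160 FPKM in MPP:MA9 and 9262 in GMP:MA9. In MPP:MA9 the first sum was mostly Pld4 (179.06 to 303.55 FPKM), Irf8 (75.44 to 179.55) and Tcf4 (243.93 in replicate 4). Spib, Pacsin1, Klk1 and Cox6a2 were at most 0.55, 0.74, 0.31 and 1.35 FPKM there. Bst2 was 13.0 to 35.25 FPKM in MPP:MA9, below its range in MPP (49.54 to 69.16). In GMP:MA9, Bst2 was 11.88 to 27.19 FPKM, below its range in GMP (30.62 to 38.58). Spib, Pacsin1, Klk1 and Cox6a2 were at most 5.1, 1.46, 0.6 and 2.24 FPKM in GMP:MA9. Pax5 was 0 in all 19 leukaemias. Siglech, a surface receptor of plasmacytoid dendritic cells, was 20.63 FPKM in GMP:MA9 replicate 5, at most 2.28 in MPP:MA9 (replicate 4) and at most 2.37 in CMP:MA9. The part of such cells in the member values was not tested.

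**Figure D5:**
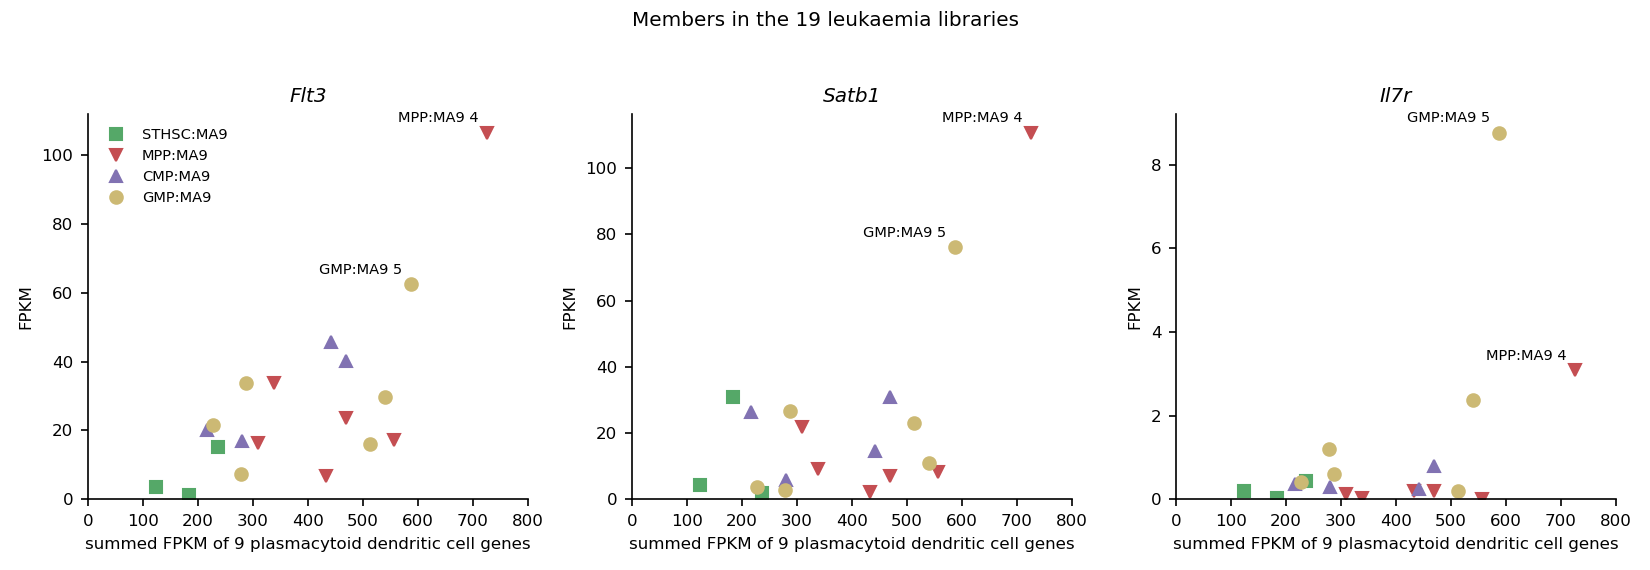
Flt3, Satb1 and Il7r (vertical axes, FPKM) against the summed FPKM of 9 plasmacytoid dendritic cell genes (horizontal axis) in the 19 leukaemia libraries, by group. MPP:MA9 replicate 4 and GMP:MA9 replicate 5 had the highest sums (725 and 587) and the highest values of Flt3, Satb1 and Il7r.

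Genes that work with the members were examined next, from lists drawn up for each role. Between MPP and CMP, the 12 other genes of V(D)J recombination and end joining did not move with Dntt and Rag2: none was higher and 1 was lower, Polm, a polymerase of end joining (-1.12). Of 17 genes of Notch processing and its nuclear partners, only Mfng, a fringe glycosyltransferase, was higher (1.36, 42.6 against 16.2 FPKM). None of the 5 Notch ligands and none of the 8 Notch target genes listed reached the level filter in any fit. Of 12 tested partners of the IL-7 and FLT3 receptors 3 were higher: Jak3, the kinase bound to the common gamma chain, by 1.18, Il2rg, that chain itself, by 1.14, and Socs2, a feedback inhibitor, by 1.05. None of 18 further lymphoid transcription factors and none of 6 other chemokine receptors and homing genes passed. Of the lineage genes, 3 of 5 T-lineage genes were higher (Lck by 1.93, Thy1 by 1.15 and Cd247 by 1.10), as were 1 of 9 B-lineage genes (Cd72, by 1.61), none of 2 NK genes, and 4 of 8 lymphoid surface genes, Ly6d by 2.31, Gimap6 by 2.24 and Lsp1 by 1.11 among them. None of these lists except end joining had a lower gene. The stem cell list had 5 of 7 higher and 1 lower and the MEP list 5 of 7 lower, while the lists of plasmacytoid dendritic cells (7 tested), granulocytes (9) and GMP (7) had no call. The median log2 difference of a list was 1.10 for the T lineage and 0.83 for surface genes, and between -0.04 and 0.24 for the other lymphoid lists, where that of all tested genes was -0.03. Of 6 sorting genes, Ly6a, which encodes Sca-1, was higher by 4.17, as the gates set it, and Slamf1, which encodes CD150, was lower by 1.91.

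Against GMP, where more genes differed, MPP were higher in 9 of 18 lymphoid transcription factors and lower in none, with Sox4 (2.59), Bcl11a (1.85) and Tcf7 (1.60), a T-lineage factor, as the largest. Of the cytokine partners 6 of 12 were higher (Jak3 by 2.43, Cish by 1.95 and Il2rg by 1.64) and Tslp was lower (-1.54). Notch machinery had 4 of 17 higher, with the fringe genes Lfng (2.16) and Mfng (2.15) and the coactivator Maml2 (2.10). In the T-lineage list 4 of 5 were higher (Lat by 3.27, Lck by 2.98 and Thy1 by 1.91), in the B-lineage list 2 of 9 (Cd72 by 2.37 and Blnk by 2.29), and in the surface list 5 of 8 were higher, led by Gimap6 (5.00), Cd27 (2.57) and Ly6d (2.57), with Ly86 lower (-2.47). End joining had 1 of 12 higher, Xrcc5, which encodes Ku80 (1.73). The chemokine list had 1 of 6 lower (Ccr2, -2.27) and the NK list 1 of 2 lower (Nkg7, -1.82). Plasmacytoid dendritic cell genes were split, 3 of 7 higher (Cox6a2, Tcf4 and Siglech, by 2.14, 1.73 and 1.11) and 1 lower (Pld4, -1.60), and 6 of 9 granulocyte and 6 of 7 GMP genes were lower. Stem cell genes were higher in 6 of 7 and MEP genes in 4 of 7. List medians were 1.91 for the T lineage, 1.63 for surface genes, 1.14 for transcription factors, 1.07 for cytokine partners and -0.22 for end joining, against 0.17 for all tested genes. Among the sorting genes Ly6a (3.81) and Cd34 (1.45) were higher and the Fc receptor genes Fcgr3 (-3.63) and Fcgr2b (-2.20) lower.

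From MPP to MPP:MA9 the lymphoid lists changed in both directions. All 4 tested T-lineage genes fell, Lat by 3.16, Lck by 3.02 and Thy1 by 1.74 among them, and 4 of 7 B-lineage genes fell (Cd72 by 3.38, Blnk by 2.57 and Pou2af1 by 2.22), while Cd22 rose by 1.39. Over the leukaemias alone, no T-lineage gene and only 3 B-lineage genes reached the level filter. The filter favours a fall in genes that passed it through the normal groups alone, and nothing is read from such falls. Of 14 lymphoid transcription factors, 3 fell, Bcl11a by 4.44, Sox4 by 3.56 and Tcf12 by 1.29, and 3 rose: Id2, an inhibitor of E proteins, by 3.85, Irf4 by 1.38 and Ikzf3 by 1.09. Of the cytokine partners 3 of 11 fell (Il2rg by 1.66, Jak3 by 1.46 and Bcl2 by 1.26). In the surface list 3 of 8 fell (Gimap6, Cd27 and Ly6d, with differences of -5.43, -4.66 and -3.25) and 3 rose (Ly86 by 3.02, Lsp1 by 2.18 and Emb by 1.35). Notch2, the only other Notch receptor tested, rose by 1.03, and of the Notch machinery 4 of 17 rose (Numb by 1.44 and Itch by 1.21 among them) and 3 fell (Maml2 by 1.73, Maml3 by 1.71 and Mfng by 1.52). Of 6 chemokine receptors and homing genes 5 rose, Ccr2 by 3.95, Cd44 by 1.45 and Cxcr4 by 1.42 among them. In end joining 4 of 12 fell, including Xrcc5 by 3.61 (listed at 0 to 0.68 FPKM in the leukaemias, and whether its reads were fully counted there was not tested), Xrcc6, which encodes Ku70, by 1.83 and Atm by 1.20, and 2 rose (Polm by 2.96 and Dclre1c by 1.53). Nkg7 fell by 4.85. List medians were -2.38 for the T lineage, -1.54 for the B lineage, -0.67 for cytokine partners, 0.08 for transcription factors and 1.39 for chemokine receptors, against -0.09 for all tested genes. The T-lineage and B-lineage medians carry the limit of the filter given above. Outside the lymphoid lists, all 9 granulocyte genes rose, plasmacytoid dendritic cell genes had 2 of 7 higher (Pld4 by 4.88 and Irf8 by 1.87) and 2 lower, GMP genes 1 of 7 in each direction, MEP genes 5 of 7 lower and stem cell genes 4 of 6 lower. Only 2 MEP genes and 1 stem cell gene reached the filter over the leukaemias alone, so nothing is read from the falls in those lists. Of 6 sorting genes 2 were higher and 3 lower, with Kit, which encodes c-Kit, at 0.997 FPKM in MPP:MA9 against 110 in MPP (-5.82).

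From GMP to GMP:MA9, 5 of 14 lymphoid transcription factors rose, led by Id2 (3.14), Ikzf2 (2.80) and Irf4 (2.74), and Bcl11a fell by 2.03. Notch2 rose by 1.72 and Lfng by 1.45, the only 1 of 17 machinery genes to move. Among the cytokine partners Flt3l, the ligand of FLT3, rose by 1.83 and Tslp fell by 2.32. Of 6 chemokine receptors and homing genes 4 rose, Ccr2 by 1.55 and Cxcr4 by 1.13 among them. None of 4 T-lineage genes passed, B-lineage genes had Cd22 higher (1.34) and Cd72 lower (-1.31), and of the surface genes Lsp1 (3.69) and Cd7 (1.77) were higher and Cd27 (-1.62) lower. Plasmacytoid dendritic cell genes had 3 of 7 higher (Pld4 by 2.83, Tcf4 by 2.58 and Siglech by 1.54) and none lower. Siglech reached the level filter only through GMP:MA9, where it was 20.63 FPKM in replicate 5 and 0.06 to 4.4 in the other libraries. Nothing is read from its call. In end joining Xrcc5 (-1.77), Xrcc6 (-1.25) and Hmgb1 (-1.17) were lower and Polm (1.39) and Dclre1c (1.32) higher, and Nkg7 was lower by 7.34. Granulocyte genes had 2 of 9 higher, GMP genes 5 of 7 lower, MEP genes 2 of 7 lower, stem cell genes 1 of 6 lower and sorting genes 2 of 6 lower. The MEP and stem cell falls carry the same limit of the filter as those in MPP:MA9. List medians were 1.07 for chemokine receptors, 0.52 for transcription factors, -0.12 for the T lineage and -0.26 for end joining, against 0.00 for all tested genes. Between leukaemias the list genes called were Flt3l (-1.12), Ikzf3 (-1.48), Pld4 (-1.12), Irf8 (-1.62) and Tcf4 (-2.18) in STHSC:MA9 against MPP:MA9, Tcf4 (-3.17) in STHSC:MA9 against GMP:MA9, and Mmp8 (1.77) and Prtn3 (1.20) in MPP:MA9 against GMP:MA9.

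The genes whose pattern was most like that of a member were sought by Pearson correlation of log2(FPKM + 1) over the 30 normal libraries, among 12367 genes, as a description. The libraries share sort groups and the marker sums noted above. Dntt was most like Emp1 (r = 0.938), H2-Ob (0.913) and Jakmip1 (0.909), and Rag2 was most like Arpp21 (0.870), Emp1 (0.868) and Jakmip1 (0.837), so that Emp1 and Jakmip1 stood in both sets. Flt3 was most like Il1r1 (0.957), Ppcdc (0.946) and Ctxn1 (0.946), and Il7r was most like Trp53i11 (0.865), Gm4955 (0.844) and Snn (0.827). The nearest genes to Notch1 were Arhgap27 (0.937), Slc43a2 (0.922) and Ptpre (0.915), and to Ccr9 they were Pydc4 (0.851), Sdc3 (0.826) and Il18r1 (0.822). Satb1 was nearest to Armcx4 (0.942), Usp22 (0.939) and Znrf1 (0.934), and Ikzf1 to Mknk2 (0.933), Maz (0.917) and Carm1 (0.917). Among the members themselves the highest coefficients were those of Dntt with Rag2 (0.900), Satb1 with Notch1 (0.887), Flt3 with Satb1 (0.871), Dntt with Flt3 (0.856) and Dntt with Il7r (0.812).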

How the data were processed

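The authors deposited FPKM values, rounded to 2 decimals. The submitters' processing notes name RSEM and mm9. The authors tested RSEM counts with edgeR, and those counts are not analysed here. The table has 68 columns: 49 carried the label of a sample, and the remaining 19 were not used. The low steps of FPKM gave depth relative to the median library, as an approximation, and no counts.

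Values were compared as log2(FPKM + 1) with a two-sided limma test (version 3.58.1, R 4.3.3, moderated with a mean-variance trend), for genes whose mean in the fitted samples reached 1 FPKM. The 30 normal samples, the 40 samples of the leukaemias and their 4 normal groups, and the 19 leukaemias were 3 separate fits. A gene was called at a Benjamini-Hochberg adjusted p below 0.05 over all tested genes with an absolute log2 difference above 1. All p-values measure the spread between these samples. Replicate experiments are not marked in the labels, so no batch term could be fitted. The functions were tested on simulated data.

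Same-numbered samples deviated together (every pair over 0.1) only for ST-HSC and LT-HSC, with a mean correlation of 0.288 over 5 pairs (lowest 0.142), and the block changed no member call there.

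The 9 members are named in every comparison. Of the other lists, drawn up for their roles (end joining, Notch, cytokine, chemokine, transcription factor, lineage, surface, plasmacytoid dendritic cell, granulocyte, GMP, MEP, stem cell and sorting genes), up to 3 called genes in each direction with the largest differences are named for 4 comparisons, plus any called between leukaemias. Some of these are not reported here. The members and lists were chosen with earlier results of these data known. Alternatives were a pseudocount of 0.1, no level filter, median-ratio scaling, a fit of only the groups compared, a replicate block, a correction for GC content and length, both together, no fold threshold, and leaving out libraries. Leaving out MEP replicates 3 and 4, or MPP:MA9 replicate 4 with GMP:MA9 replicate 5, was chosen after seeing the data. Figures were drawn with matplotlib 3.10.9 in Python 3.11.15.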

Additional observations from a re-analysis of the deposited data

Results flagged for a closer look

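A single library stood apart from the rest of its group in 7 of 81 pairs of member and group tested. Chance gives about 1 in 20 for independent values of normal spread. Members share libraries, and pairs with every library at 0 were counted though they could not be flagged. The count is therefore not weighed against that rate. Flt3 in CMP replicate 5 was 15.15 FPKM, the other CMP libraries being at 28.78 to 32.77. Notch1 in MPP replicate 5 was 34.58 FPKM (17.26 to 22.4 in the others), and Notch1 in GMP replicate 5 was 9.03 FPKM (5.78 to 6.35 in the others). Satb1 in LT-HSC replicate 4 was 33.73 FPKM, against 9.2 to 12.54. In MPP:MA9 replicate 4 Il7r was 3.09 FPKM, against 0 to 0.2, and Rag2 was 0.58 FPKM, against 0 to 0.15. Rag1 in GMP:MA9 replicate 1 was 0.02 FPKM where the other 5 libraries were listed at 0.

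By the limma F test, the difference between leukaemia and normal cell was not the same in the 4 origins for Dntt (adjusted p = 3.30e-16), Rag2 (adjusted p = 4.12e-07), Flt3 (adjusted p = 1.39e-06), Il7r (adjusted p = 2.20e-05) and Ikzf1 (adjusted p = 0.00141). Since Dntt and Rag2 passed the level filter through the normal groups alone, their results mainly restate the difference between normal groups, and nothing is read from them. Flt3 and Il7r changed in opposite directions in the MPP and GMP origins, with log2 differences of -1.76 and 3.16 for Flt3 and -2.27 and 1.10 for Il7r. The Il7r call in the GMP origin was lost without GMP:MA9 replicate 3 or replicate 5 (0.69 without replicate 5).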

How the results depend on the processing

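No called member changed direction under any alternative run. Among 78 member values that were not called, 9 changed sign under an alternative and 14 with 1 library left out. The count of members called was within 1.5 times its first value in 196 values and further off in 16 under the alternatives other than leaving out 1 library, and within it in 626 and further off in 8 with 1 library left out. The counts that moved further were these, and unless said otherwise the cause was not tested. GMP against CMP went from 4 to 2 under median-ratio scaling. MEP against CMP went from 3 to 5 without MEP replicates 3 and 4, and to 5 without the LT-HSC and ST-HSC replicates 4 and 5 as well. With no fold threshold, which by construction calls smaller differences, CMP:MA9 against CMP went from 3 to 5, GMP:MA9 against GMP from 3 to 5, CMP:MA9 against GMP from 2 to 4, and STHSC:MA9 against MPP:MA9 and MPP:MA9 against GMP:MA9 from 0 to 2. With a pseudocount of 0.1, GMP:MA9 against GMP went from 3 to 5, with Dntt and Rag2 as lower calls, CMP:MA9 against GMP from 2 to 4 and STHSC:MA9 against MPP:MA9 from 0 to 1. STHSC:MA9 against GMP went from 2 to 1 with no level filter, with the GC content and length correction, and with that correction and the block, and CMP:MA9 against GMP went from 2 to 1 under both corrections. With 1 library left out, the count ran from 0 to 3 for STHSC:MA9 against GMP, from 0 to 2 for STHSC:MA9 against MPP:MA9, and from 0 to 1 for STHSC:MA9 against CMP:MA9 and against GMP:MA9.

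Calls of single members that also ended under other settings include those of Il7r for MPP against ST-HSC (pseudocount 0.1, no level filter and median-ratio scaling, adjusted p from 0.0846 to 0.117), Notch1 for MPP against CMP (pseudocount 0.1 and no level filter, adjusted p = 0.0665 and 0.0605), Il7r for MPP against MEP and Satb1 for ST-HSC against LT-HSC (median-ratio scaling, 0.99 and 0.98), the same Satb1 call with no level filter (adjusted p = 0.0668), Ikzf1 for MPP against GMP (block with GC content and length, 0.99), Satb1 for GMP against CMP (GC content and length, -0.92) and Satb1 for STHSC:MA9 against ST-HSC (no level filter and only those groups, adjusted p = 0.064 and 0.0683).

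With the replicate number as a block, the count of members called stayed within 1.5 times in 21 of 21 comparisons, and 6 members were still higher in MPP than in LT-HSC. The block ended 3 calls of single members: Il7r for MPP against ST-HSC (0.96) and against MEP (0.99), and Satb1 for STHSC:MA9 against ST-HSC (-1.87).

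Counts of all called genes moved further. For ST-HSC against LT-HSC the count was 280, 40 in a fit of those groups alone and 552 without replicates 4 and 5. For STHSC:MA9 against MPP:MA9 it was 349, 107 with the GC content and length correction and 41 with the block as well, and for MPP:MA9 against GMP:MA9 it was 270, 120 and 97. With the block the count went from 44 to 18 for STHSC:MA9 against CMP:MA9, from 65 to 35 against GMP:MA9, from 14 to 3 for MPP:MA9 against CMP:MA9 and from 25 to 7 for CMP:MA9 against GMP:MA9. Median-ratio scaling moved the median of all genes by 0.15 for CMP:MA9 against CMP, and the share of calls that were higher from 46.8% to 57% there, from 14.3% to 24.7% for STHSC:MA9 against MPP:MA9, from 45.5% to 59% for STHSC:MA9 against CMP:MA9 and from 62.6% to 51.3% for MPP:MA9 against GMP:MA9.

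Depth limits what can be said of Dntt, Rag1 and Rag2 in the leukaemias, where a listed 0 can stand for any value that rounds to 0.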

Other observations

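The end-joining gene Xrcc5 stood at 1.88 to 37.6 FPKM in the normal libraries and at 0 to 0.68 in the leukaemias, and whether its reads were fully counted there was not tested. Polm, a polymerase of the same family as Dntt, was 3.22 to 17.52 FPKM in the leukaemias. It was 0.12 to 0.97 FPKM in MPP, the lowest normal group, and 3.36 to 7.98 in LT-HSC, 1.37 to 5.83 in ST-HSC and 4.15 to 5.35 in MEP, which overlap the leukaemias. These genes were chosen after their values were seen.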
